A study of Mus musculus with 16 samples.

Results

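The cytochrome P450 enzymes of families 2, 3 and 4 were described here across nuclear RNA of the mouse colon. Members were all protein-coding genes whose GRCm38 symbol is Cyp2, Cyp3 or Cyp4 followed by letters and a number. The rule found 78 members among 51912 genes in the count table, of which 21870 are protein-coding. There were 49 members of family 2, 9 of family 3 and 20 of family 4. The rule took in Cyp2ab1, whose symbol has a longer letter code, and Cyp3a41a, Cyp3a41b, Cyp4a12a, Cyp4a12b and Cyp4a30b, whose symbols end in a further letter. Pseudogenes of the same families were left out.

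P450 enzymes are haem proteins of the endoplasmic reticulum that insert 1 oxygen atom into a substrate with electrons from the reductase encoded by Por. Families 2 and 3 hold the main drug- and steroid-oxidising enzymes of liver and gut, and the Cyp2c and Cyp2j enzymes also turn arachidonic acid into epoxides. Family 4 enzymes hydroxylate fatty acids and leukotrienes. In liver and intestine many of these genes are switched on by the nuclear receptors PXR (Nr1i2), CAR (Nr1i3) and PPAR-alpha (Ppara). The aryl hydrocarbon receptor (AhR), the target of the agonist used here, is best known for switching on family 1, with Cyp1a1 as its standard target.

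The groups were 4 libraries each of neuronal nuclei after agonist, neuronal nuclei after control treatment, non-neuronal nuclei after agonist and non-neuronal nuclei after control treatment. All mice were C57BL/6, kept specific pathogen-free, and all had received intravenous AAV9-CaMKII-EGFPKASH 5 weeks earlier, so controls carried the virus too. The agonist was 3-methylcholanthrene and the control was corn oil, both injected into the abdomen 14 hours before nuclei were isolated. Nuclei came from the peeled longitudinal muscle with its myenteric plexus, and neuronal nuclei were those sorted as EGFP-positive. The label therefore follows infection and the CaMKII promoter, and EGFP-negative nuclei can include unlabelled neurons. The labels give no dose, age or sex, and separate mice are not stated for the 4 replicates, so p-values measure only the spread between these samples, which may be technical. The study's protocol covers small intestine and colon, and all 16 samples are labelled colon. The column headers of the count table carry a project name that refers to wild type and AhR knockout, which no sample label gives, and groups were taken from the labels.

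Library totals ran between 2663738 and 4902303 counts, and levels are in CPM, each gene's counts scaled to that total. The summed level of 5 neuronal markers was 1628 to 2357 CPM in neuronal libraries and 20.6 to 277 CPM in non-neuronal ones. Cyp1a1 had 2.26, 7.20, 7.85 and 10.0 CPM in neuronal agonist libraries and no count in neuronal control libraries. It had 6.32, 5.34, 132 and 169 CPM in non-neuronal libraries after agonist and 0, 0, 0.227 and 0 CPM in non-neuronal control libraries, so both agonist groups lay above their controls, and libraries 1 and 2 of the non-neuronal agonist group lay far below libraries 3 and 4. Non-neuronal agonist library 1 stood apart in cell markers. A list of 8 genes of small-intestinal enterocytes, made after the data were seen, summed to 7436 CPM there, against 35.9 to 66.0 CPM in the other 3 libraries of its group, with Sis (sucrase-isomaltase) at 1733 and Apoa4 at 778 CPM. The non-neuronal control libraries had 50.6 to 137 CPM for the same list. Of the 4 hepatocyte markers, library 1 had 0.204 CPM of Alb, no count of Ttr or Serpina1a, and 789 CPM of Apoa1, which enterocytes also make. Mitochondrially encoded genes took 42.8% of the counts of that library, 33.3% of library 2 and 21.8% and 10.3% of libraries 3 and 4, against 11.2% to 26.3% in non-neuronal control and 1.77% to 6.11% in neuronal libraries. What these features contribute to the P450 values was not tested, and results that rest on library 1 are given with and without it.

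Few of the 78 genes were detected in neuronal nuclei and most were detected in non-neuronal control nuclei. A member counted as detected in a group with at least 1 count in at least 3 of its 4 libraries. By that rule 13 members (16.7%) were detected in neuronal agonist, 20 (25.6%) in neuronal control, 26 (33.3%) in non-neuronal agonist and 48 (61.5%) in non-neuronal control nuclei. Of all protein-coding genes, 58.1% were detected in neuronal agonist, 64.7% in neuronal control, 61.1% in non-neuronal agonist and 71.0% in non-neuronal control nuclei. A total of 40 members had no count in any neuronal agonist library, 25 none in neuronal control, 12 none in non-neuronal agonist and 2 none in non-neuronal control. A count of 0 over a group allows up to 0.208 CPM in neuronal agonist, 0.233 in neuronal control, 0.172 in non-neuronal agonist and 0.213 in non-neuronal control nuclei, counting error only.

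Detection varied within groups. The number of members with a count was 15, 24, 20 and 21 in neuronal agonist libraries 1 to 4 and 31, 20, 29 and 40 in neuronal control libraries. It was 50, 45, 20 and 34 in non-neuronal agonist libraries and 51, 62, 63 and 41 in non-neuronal control libraries. The agonist and control groups overlapped in both populations. After thinning all libraries to 2663738 counts the expected numbers were 14.4, 22.5, 19.6 and 20.9 in neuronal agonist, 30.1, 18.9, 27.0 and 38.9 in neuronal control, 46.0, 43.8, 18.2 and 31.6 in non-neuronal agonist and 50.4, 62.0, 58.3 and 38.5 in non-neuronal control libraries. Depth thus moved these numbers by a few genes at most. With 1 library left out and a count asked of 2 of the 3 that remain, a looser rule, the group count for non-neuronal agonist nuclei was 30 without library 1, 33 without library 2, 44 without library 3 and 37 without library 4.

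A core of 10 members was detected in all 4 groups. They were Cyp2c55 and Cyp2c65 of the arachidonic acid and drug-oxidising Cyp2c subfamily, Cyp2d22, the epoxide-forming Cyp2j6 and Cyp2j9, the vitamin D 25-hydroxylase Cyp2r1, Cyp2s1, and the fatty acid hydroxylases Cyp4f13, Cyp4f16 and Cyp4v3. Cyp2u1, a long-chain fatty acid hydroxylase, and Cyp4x1, a P450 known from rodent brain, joined them in both neuronal groups. A total of 31 members were detected in a non-neuronal group and in no neuronal group, and 0 the other way round. The same split was not made over all protein-coding genes, so it cannot be read as particular to the members. Of all protein-coding genes, 71.0% were detected in non-neuronal control and 61.1% in non-neuronal agonist nuclei. The shares were 64.7% in neuronal control and 58.1% in neuronal agonist nuclei. Among the 31 were the intestinal Cyp3a13, the liver-type Cyp3a11 and Cyp3a25, the CAR target Cyp2b10, the PPAR-alpha target Cyp4a10, the lung-type Cyp2f2 and Cyp4f40. Leaving out non-neuronal agonist library 1, an alternative chosen after the data were seen, gave 33 and 0. The other 26 members were detected in no group. They included Cyp2g1, known from olfactory tissue, with 4 counts in all, and Cyp4f39, which had no count in any of the 16 libraries. Of the 78 members, 42 had at least 50 counts over all libraries and 23 had under 20.

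**Figure D1:**
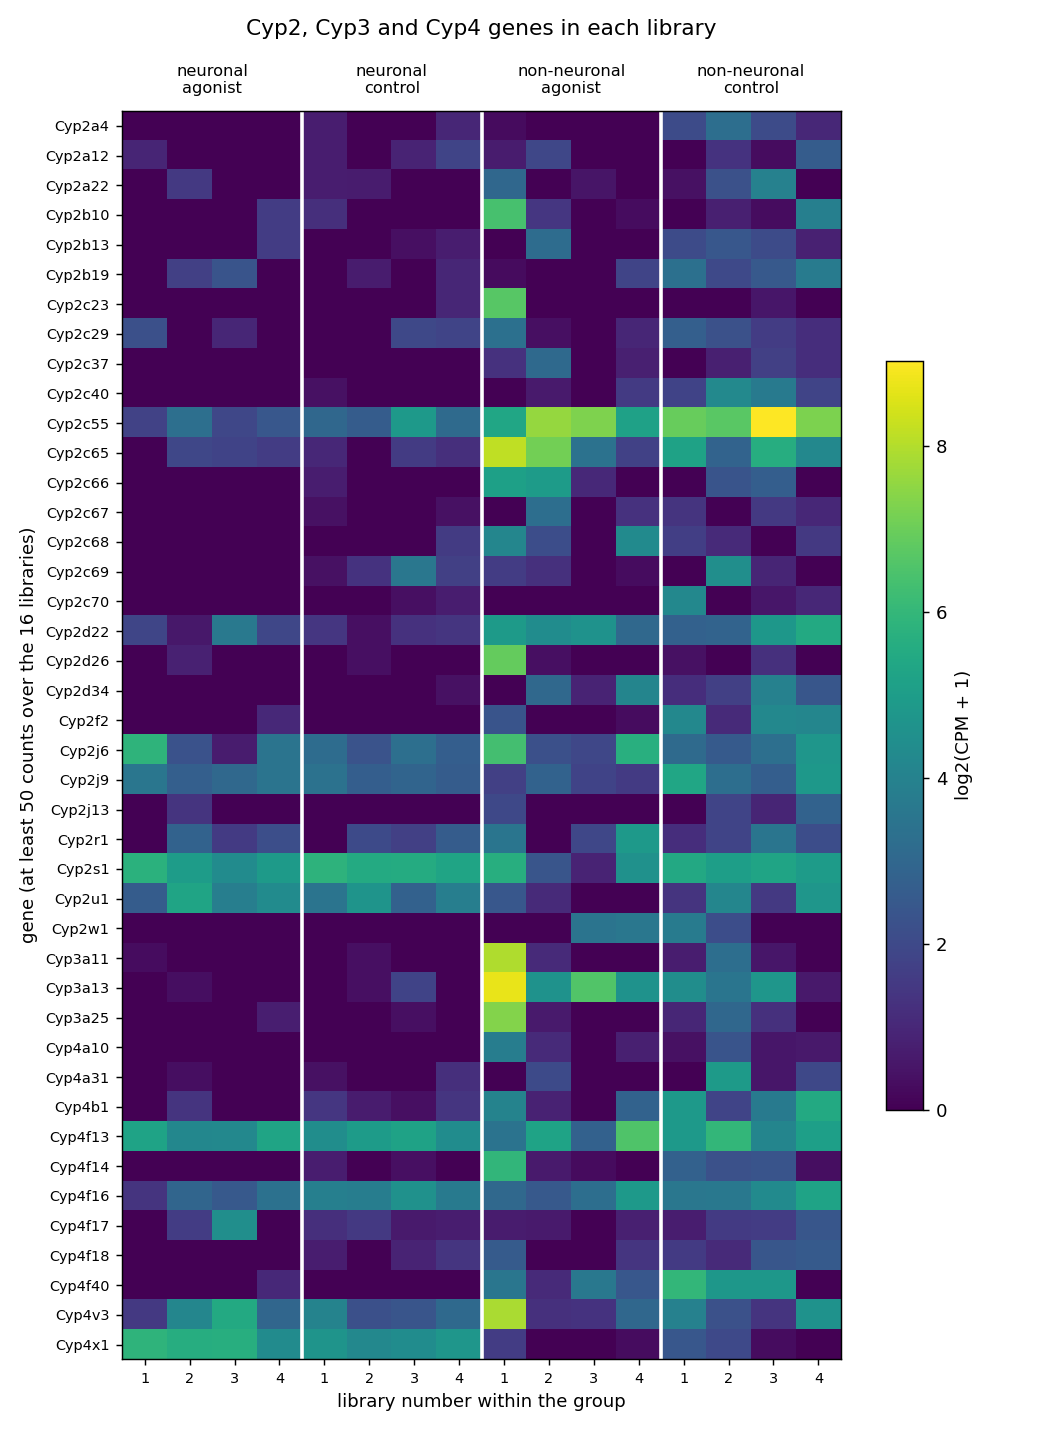
Levels of the 42 members with at least 50 counts over the 16 libraries, as log2(CPM + 1). Each column is 1 library and each row 1 gene, with neuronal groups on the left. The row of Cyp4x1 is brightest in the 8 neuronal libraries, the rows of Cyp2c55 and Cyp3a13 in non-neuronal ones, and the rows of Cyp2s1 and Cyp4f13 in both, while Cyp2c23, Cyp2d26 and Cyp3a25 are bright in non-neuronal agonist library 1.

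The 78 genes together made up a small share of nuclear RNA. Their summed level was 236, 197, 208 and 166 CPM in neuronal agonist libraries, against 185, 158, 210 and 172 CPM in neuronal control libraries. The means were 202 ± 29.0 and 181 ± 21.8 CPM (SD, n = 4 each), and the groups overlapped. In non-neuronal agonist libraries the sum was 2102, 546, 330 and 375 CPM, against 547, 490, 886 and 558 CPM in non-neuronal control libraries. The means were 838 ± 848 and 620 ± 180 CPM (SD, n = 4 each). The agonist mean was carried by library 1, and without it the mean was 417 CPM, so the order of the groups turned round. All 8 neuronal libraries lay below all 8 non-neuronal ones.

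**Figure D2:**
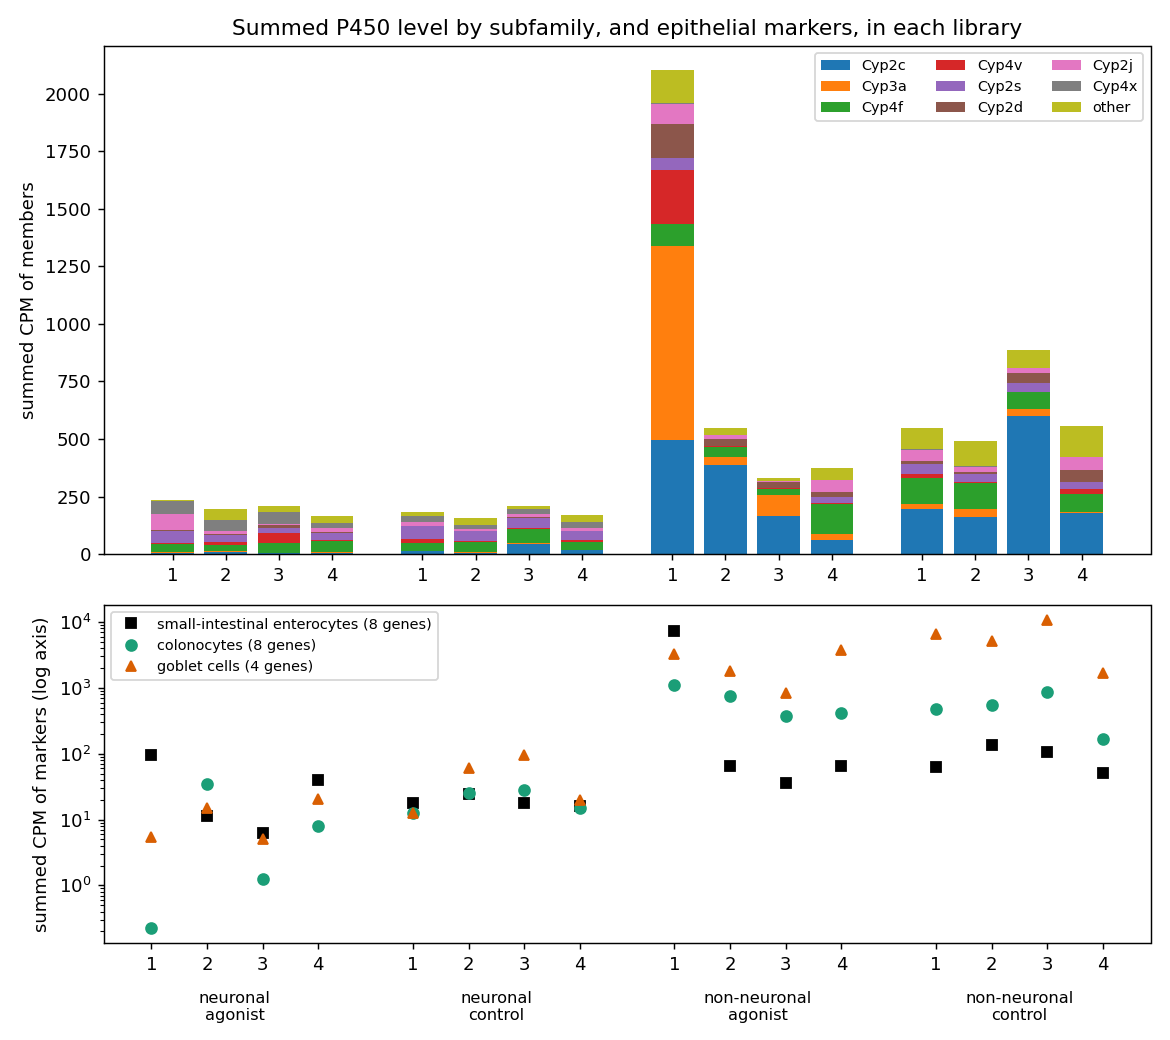
Upper panel, summed CPM of the members in each library, stacked by subfamily, with bars from 0. Lower panel, summed CPM of marker lists for small-intestinal enterocytes (squares), colonocytes (circles) and goblet cells (triangles) on a log axis. Non-neuronal agonist library 1 holds 2102 CPM of P450 transcripts, with a large Cyp3a share, and 7436 CPM of small-intestinal enterocyte markers.

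By subfamily, Cyp2c on chromosome 19 held the most counts, 9621 over its 15 members. Its summed level was 6.09 to 11.6 CPM in neuronal agonist, 6.69 to 45.2 in neuronal control, 61.3 to 496 in non-neuronal agonist and 161 to 601 CPM in non-neuronal control libraries, so the populations did not overlap within a treatment. Cyp3a on chromosome 5, the drug- and steroid-oxidising subfamily, reached at most 1.58 CPM in neuronal agonist and 2.84 CPM in neuronal control libraries, while non-neuronal agonist libraries held 26.9 to 839 CPM and non-neuronal control libraries 0.774 to 35.3 CPM. The Cyp4f fatty acid hydroxylases were present on both sides, at 26.0 to 48.5 CPM in neuronal agonist, 34.4 to 60.5 in neuronal control, 26.2 to 128 in non-neuronal agonist and 73.9 to 114 CPM in non-neuronal control libraries. In control mice the Cyp4f sums of the populations did not overlap, and after agonist they did. The epoxide-forming Cyp2j subfamily overlapped after agonist, at 7.85 to 67.9 CPM in neuronal and 5.50 to 85.7 CPM in non-neuronal libraries, and lay at 9.42 to 17.8 CPM in neuronal and 19.5 to 59.9 CPM in non-neuronal libraries of control mice. Cyp4a, the PPAR-alpha-responsive fatty acid hydroxylases, lay at 0 to 4.71 CPM in neuronal agonist, 0 to 1.95 in neuronal control, 0 to 15.5 in non-neuronal agonist and 2.86 to 48.4 CPM in non-neuronal control libraries, with a median of 4.88 CPM in the last, so the populations overlapped after agonist.

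A total of 13 members had most of all their counts in non-neuronal agonist library 1. Cyp3a25 had 96.0% and Cyp2d26, a Cyp2d enzyme of liver, 98.0% of their counts there. Cyp2d26 stood at 117 CPM in library 1 and at 0.281, 0 and 0 CPM in libraries 2 to 4 of its group, against 0.318, 0, 1.36 and 0 CPM in non-neuronal control libraries. Cyp3a25 stood at 163, 0.562, 0 and 0 CPM in non-neuronal libraries after agonist, against 0.953, 7.13, 1.36 and 0 CPM in non-neuronal control libraries. Cyp3a11, the major Cyp3a of mouse liver, stood at 249, 1.12, 0 and 0 CPM against 0.635, 8.63, 0.453 and 0 CPM. Each of these genes was high in 1 library of 16. Cyp2c23 had no count in neuronal agonist libraries and 503, 0, 0 and 0 counts in the non-neuronal ones. Cyp4f14 had none against 297, 2, 1 and 0 counts, and Cyp2c66 none against 167, 107, 5 and 0. Without library 1 Cyp2c23 had no count on either side and Cyp4f14 was at the floor of 3 counts. Cyp2d26 and Cyp3a25 passed the count filter in no comparison. With no filter Cyp2d26 was called lower in neuronal nuclei after agonist.

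Ranked per kilobase of exon, the leading members differed between the populations. In neuronal agonist nuclei the order was Cyp4x1 with 10.4 ± 3.95, Cyp2s1 with 6.74 ± 2.96, Cyp4f13 with 6.17 ± 2.61, Cyp2j6 with 4.98 ± 7.35 and Cyp4v3 with 4.56 ± 4.97 CPM per kilobase (SD, n = 4). In neuronal control nuclei it was Cyp2s1 with 9.40 ± 1.57, Cyp2c55 with 6.10 ± 5.55, Cyp4f13 with 5.99 ± 1.76, Cyp4x1 with 5.29 ± 0.936 and Cyp4f16 with 5.09 ± 1.62 CPM per kilobase. The place of Cyp2c55 rested on neuronal control library 3, at 28.7 CPM with 5.17 to 7.79 CPM in the others. That of Cyp2j6 rested on neuronal agonist library 1, at 57.3 CPM with 0.628 to 10.0 CPM in the others. In non-neuronal agonist nuclei Cyp2c65 had 56.3 ± 68.8, Cyp2c55 52.9 ± 40.2, Cyp3a13 48.1 ± 65.4, Cyp3a25 19.6 ± 39.1 and Cyp2d26 16.4 ± 32.8 CPM per kilobase, an order made by library 1. Without that library Cyp2c55 came first with 63.8 ± 41.3, ahead of Cyp2c65 with 25.9 ± 39.5, Cyp3a13 with 15.9 ± 13.7, Cyp4f13 with 10.2 ± 9.99 and Cyp2c66 with 5.33 ± 8.77 CPM per kilobase (SD, n = 3), and Cyp3a25 and Cyp2d26 stood at 0.0899 and 0.0523, values computed after the data were seen. In non-neuronal control nuclei Cyp2c55 led with 113 ± 100.0, ahead of Cyp2c65 with 14.1 ± 9.77, Cyp4f40 with 11.5 ± 10.3, Cyp4b1 with 9.49 ± 7.94 and Cyp4f13 with 7.87 ± 4.32 CPM per kilobase. Cyp2c55 took the largest share of member counts in all 4 non-neuronal control libraries, and 59.1% of them in library 3. In each of the 4 orders over all libraries, every gene differed from the next by less than the larger of their SDs. In non-neuronal control nuclei the libraries of Cyp2c55, at 52.1 to 262, and of Cyp2c65, at 3.31 to 25.4 CPM per kilobase, still did not overlap.

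Of the 78 members, 24 passed the count filter in at least 1 comparison and 5 were called in any. The count filter asks for about 10 counts in at least 4 libraries, so a member that is present in 1 population only can pass through that population alone. Calls are at an edgeR quasi-likelihood adjusted p (Benjamini-Hochberg over all genes tested) under 0.05.

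Between populations in control mice, Cyp4x1 was higher in neuronal nuclei, and Cyp2c55, Cyp2c65 and Cyp2d22 were lower. These 4 were called of the 11 members tested, 1 higher and 3 lower, while 25.4% of the 15285 genes tested were called, 11.8% higher and 13.5% lower. The same 4 members had groups that did not overlap, as did 30.9% of all genes tested. The median log2 fold change was -0.71 over the 11 members tested and -0.11 over all genes tested. In bulk nuclei a lower value can come from fewer nuclei of a type or from less RNA per nucleus, and these cannot be told apart. The count of members called was 8 without neuronal control library 2 or 3 or non-neuronal control library 2. It was 7 without neuronal control library 4 or non-neuronal control library 4. Cyp2b19, Cyp2f2, Cyp4b1, Cyp4f40, Cyp3a13, Cyp2j9 and Cyp4f14 were among the members added. With 1 library left out, 3399 to 4735 of all genes were called, against 3876 in the main fit. The number of members tested in those fits is not given here, so the rise cannot be read as particular to the members.

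After agonist, Cyp4x1 was again higher in neuronal nuclei, and Cyp2c55, Cyp2c65 and Cyp3a13 were lower. These 4 were called of 13 members tested, 1 higher and 3 lower, while 13.6% of the 14065 genes tested were called, 6.67% higher and 6.97% lower. The groups of Cyp4x1, Cyp2c55 and Cyp3a13 did not overlap, which was so for 21.7% of all genes tested. The median log2 fold change was -1.66 over the 13 members and -0.15 over all genes. With library size in place of TMM scaling the all-gene median moved to 0.43 and the higher share of all calls to 67.2%, against 48.9% with TMM, and the members' calls were again 1 higher and 3 lower. The 2 treatments use different libraries, and a call in only 1 of them does not show that the populations differ more under that treatment.

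**Figure D3:**
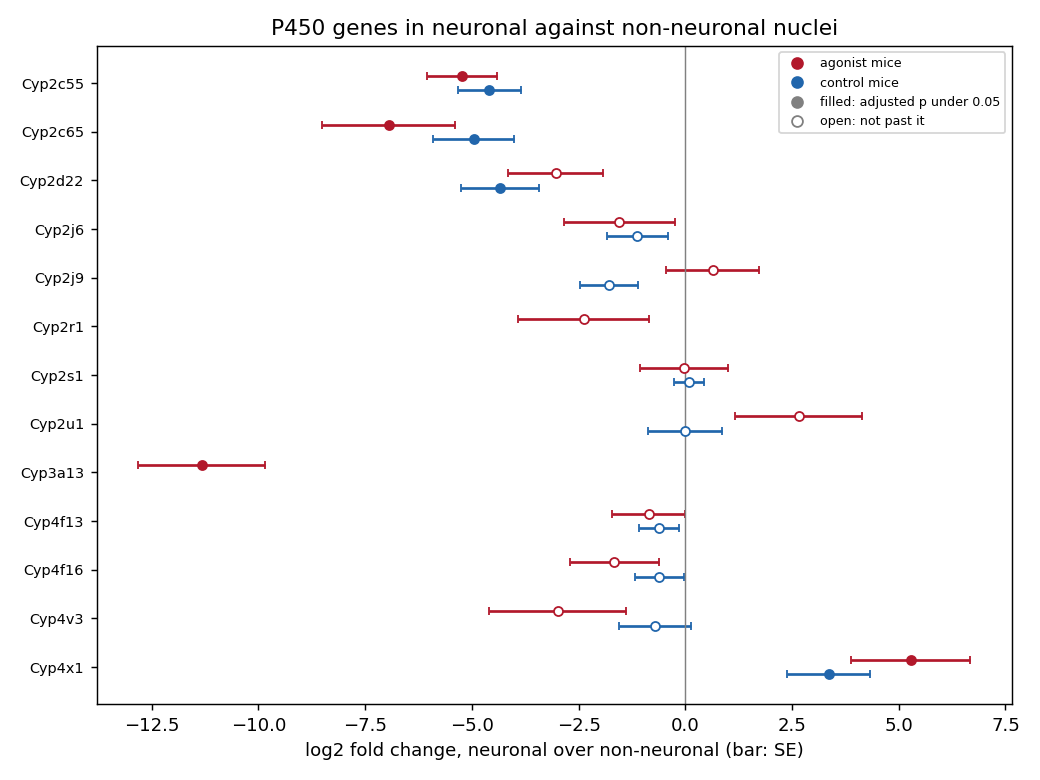
Log2 fold change of neuronal over non-neuronal nuclei with its SE, for members tested in agonist mice (red) and control mice (blue). Filled points are called at an adjusted p under 0.05. Cyp4x1 lies right of 0 under both treatments and Cyp2c55 and Cyp2c65 lie left of it, with Cyp3a13 at -11.33 in agonist mice.

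Cyp4x1 (ENSMUSG00000047155, chr4:115106323-115134281 on the minus strand, GRCm38) was the 1 member called higher in neuronal nuclei, with Cyp2u1 added only without the libraries over 30% mitochondrial counts. Cyp4x1 had 57.7, 48.1, 49.3 and 19.7 CPM in neuronal agonist and 24.8, 17.6, 20.2 and 26.0 CPM in neuronal control libraries. It had 2.04, 0, 0 and 0.238 CPM in non-neuronal agonist and 4.45, 3.00, 0.227 and 0 CPM in non-neuronal control libraries. All 8 neuronal libraries lay above all 8 non-neuronal ones. The log2 fold change of neuronal over non-neuronal nuclei was 5.28 after agonist (SE 1.39, edgeR adjusted p = 0.0196) and 3.36 in control mice (SE 0.98, edgeR adjusted p = 0.0223). Without non-neuronal agonist library 1 the first was 8.32 (edgeR adjusted p = 0.00257). The second was 4.18 without non-neuronal control library 1, and it missed the threshold without neuronal control library 1, 3 or 4, at 3.37, 3.39 and 3.33 (edgeR adjusted p = 0.0539, 0.0525 and 0.0558), and in the fit over all 4 groups, at 3.27 (edgeR adjusted p = 0.0623; range over all alternatives 0.00088 to 0.0623). Its antisense neighbour Cyp4x1os overlaps its exons and had 16 counts over all libraries, against 974 of Cyp4x1. The strand setting of the counting is not given in the sources used here.

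Cyp2c55 (ENSMUSG00000025002, chr19:39007019-39042693, plus strand), a P450 of the mouse large intestine that oxidises arachidonic acid, was the leading member of non-neuronal control nuclei. It had 2.48, 8.75, 2.83 and 4.50 CPM in neuronal agonist and 40.0, 194, 154 and 34.9 CPM in non-neuronal libraries after agonist. In control mice it had 7.04, 5.17, 28.7 and 7.79 CPM in neuronal and 122, 104, 523 and 153 CPM in non-neuronal libraries. No neuronal library reached the lowest non-neuronal one of its treatment. The log2 fold change was -5.23 after agonist (SE 0.83, edgeR adjusted p = 0.000822) and -4.59 in control mice (SE 0.74, edgeR adjusted p = 0.000579), past the threshold under all alternatives run. Single libraries moved the size: it was -4.63 without non-neuronal agonist library 2, -3.48 without non-neuronal control library 3 and -5.53 without neuronal control library 3. Sums of goblet cell and colonocyte markers in control library 3 were also the highest of their group. The 4 goblet cell markers stood at 94.6 CPM in neuronal control library 3 with 12.4 to 61.7 CPM in the other 3. In non-neuronal control library 3 they stood at 10786 CPM with 1669 to 6597 CPM in the others. Muc2 alone gave 82.4 and 10428 CPM of these sums. Spdef was also highest in library 3, but Fcgbp and Clca1 were higher in neuronal control library 2 and non-neuronal control library 1. The colonocyte markers stood at 27.8 and 857 CPM in neuronal and non-neuronal control library 3. Pan-epithelial markers were highest in library 2 of both control groups, at 23.1 and 504 CPM against 17.9 and 437 CPM in library 3. In non-neuronal agonist libraries the goblet sums were 3301, 1837, 828 and 3773 CPM, lowest in library 3 and highest in library 4. In the same order of libraries the colonocyte sums were 1118, 746, 379 and 410 CPM. The part of these markers in the Cyp2c55 values was not tested.

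Cyp2c65 (ENSMUSG00000067231, chr19:39061015-39093944, plus strand), a neighbouring intestinal member of the Cyp2c cluster, followed the same direction with more spread. It had 0, 2.83, 2.51 and 2.08 CPM in neuronal agonist and 284, 138, 9.51 and 2.38 CPM in non-neuronal libraries after agonist. Control mice gave 1.01, 0, 1.99 and 1.30 CPM in neuronal and 35.6, 6.38, 49.0 and 17.8 CPM in non-neuronal libraries. The groups were apart in control mice and overlapped after agonist, where non-neuronal library 4 was at the neuronal level. The log2 fold change was -4.95 in control mice (SE 0.95, edgeR adjusted p = 0.00183), past the threshold under all alternatives, with -4.25 without non-neuronal control library 3. After agonist it was -6.95 (SE 1.55, edgeR adjusted p = 0.00981) and -5.70 without non-neuronal library 1 (edgeR adjusted p = 0.0216). That call was lost without neuronal agonist library 3 or 4, at -7.05 and -6.95 (edgeR adjusted p = 0.0521 and 0.0675), and without non-neuronal libraries 1 and 2 together, those above 30% mitochondrial counts, at -2.09 (edgeR adjusted p = 0.484; range over alternatives 7.67e-08 to 0.484). Of its 75-base stretches, 11.4% also occur in transcripts of other genes, so part of its count can be divided.

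Cyp3a13 (ENSMUSG00000029727, chr5:137892932-137921619, minus strand), the Cyp3a enzyme of mouse intestine, was found almost entirely in non-neuronal nuclei after agonist. It had 0, 0.257, 0 and 0 CPM in neuronal and 428, 23.6, 93.7 and 23.5 CPM in non-neuronal libraries after agonist. These are 1 count against 2723, a ratio of 0.000444 (95% counting interval 1.12e-05 to 0.00248). Of the 2723 counts, 2097 were in non-neuronal agonist library 1, and libraries 2 to 4 held 84, 443 and 99. Such a ratio compares summed reads of 4 libraries a group and carries no test of the groups. The fitted log2 fold change was -11.33 (SE 1.48, edgeR adjusted p = 0.0002), a size that depends on the prior count. It was -9.32 without non-neuronal library 1 and -12.73 without neuronal library 2, and past the threshold under all alternatives. In control mice Cyp3a13 fell short of the count filter, with 0, 0.304, 2.56 and 0 CPM in neuronal and 20.6, 10.5, 25.8 and 0.516 CPM in non-neuronal libraries. That is 10 counts against 209, a ratio of 0.0524 (95% counting interval 0.0248 to 0.0983). The groups overlapped through non-neuronal control library 4.

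Cyp2d22 (ENSMUSG00000061740, chr15:82370527-82380260, minus strand), a Cyp2d enzyme often compared with human CYP2D6, had 1.68, 0.304, 1.42 and 1.62 CPM in neuronal control and 6.03, 6.38, 26.5 and 43.9 CPM in non-neuronal control libraries. The groups were apart, with a log2 fold change of -4.34 (SE 0.92, edgeR adjusted p = 0.00334), past the threshold under all alternatives. After agonist it had 2.71, 0.514, 11.6 and 2.77 CPM in neuronal and 29.0, 20.2, 23.5 and 7.37 CPM in non-neuronal libraries, which overlapped. The log2 fold change was then -3.03 (SE 1.11, edgeR adjusted p = 0.0903), or -4.00 without neuronal agonist library 3 (edgeR adjusted p = 0.0721). It passed the threshold with DESeq2 (-3.06, adjusted p = 0.0103) and in the edgeR fit over all 4 groups (-2.99, adjusted p = 0.0319), 2 of 15 alternatives.

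**Figure D4:**
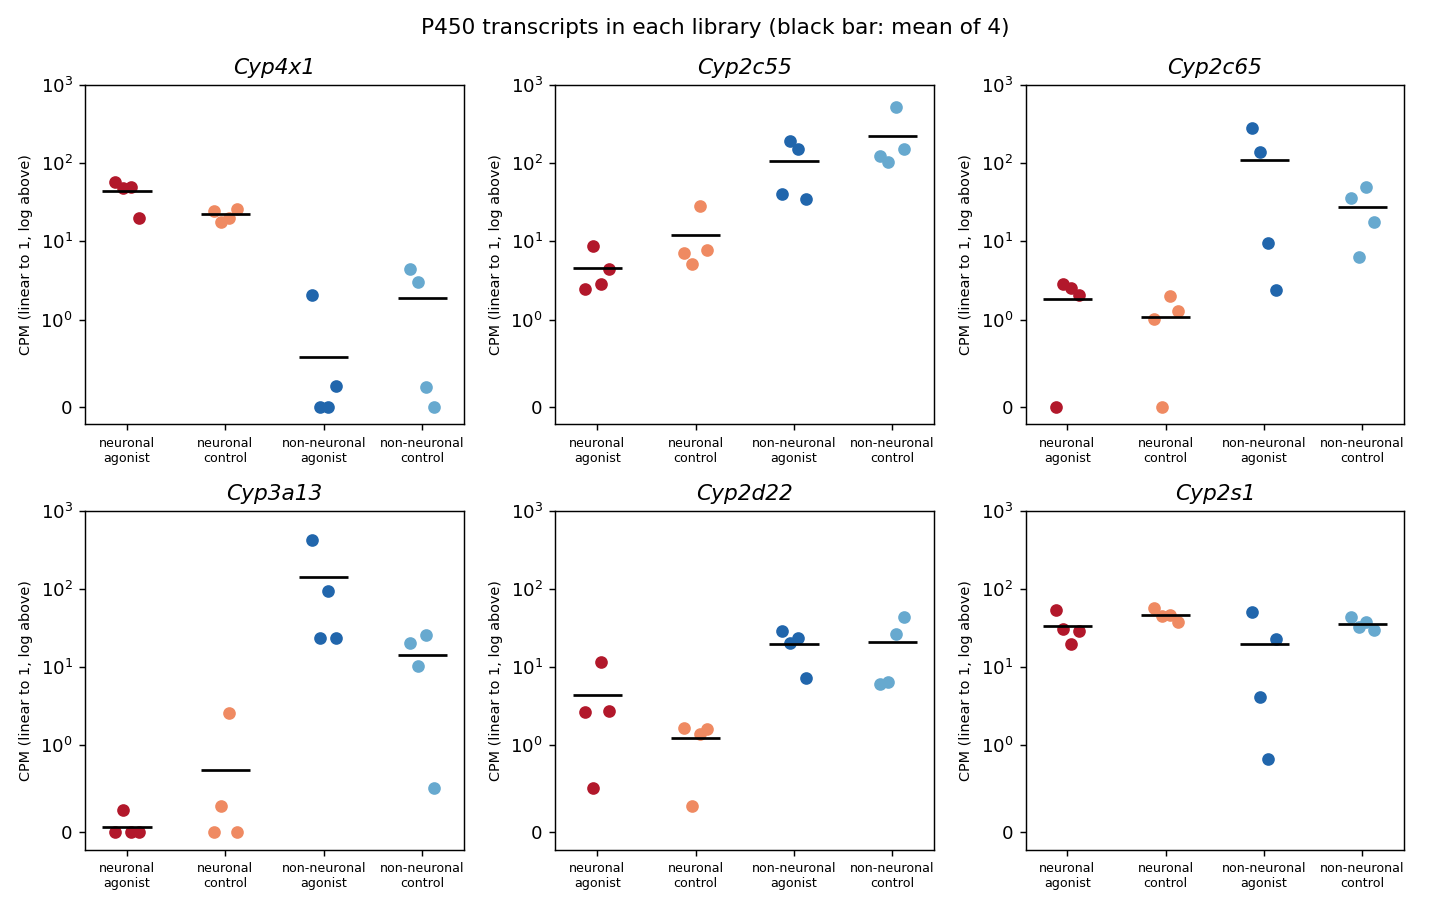
CPM of 6 members in each library by group, on an axis that is linear up to 1 and logarithmic above, with a black bar at the mean of 4. Cyp4x1 is highest in both neuronal groups, Cyp2c55, Cyp2c65, Cyp3a13 and Cyp2d22 have higher means in both non-neuronal groups, and Cyp2s1 overlaps between populations.

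Cyp2s1 (ENSMUSG00000040703, chr7:25802475-25816913, minus strand), a P450 of epithelia described as inducible by dioxin through AhR, did not separate the populations. It had 53.9, 30.6, 19.5 and 29.1 CPM in neuronal agonist and 50.2, 4.21, 0.846 and 22.8 CPM in non-neuronal libraries after agonist. In control mice it had 56.7, 44.7, 46.3 and 38.0 CPM in neuronal and 43.2, 32.7, 38.1 and 30.2 CPM in non-neuronal libraries. The log2 fold change was 0.08 in control mice (SE 0.35, edgeR adjusted p = 0.903) and -0.03 after agonist (SE 1.04, edgeR adjusted p = 0.993), a sign that turned under several alternatives. The SE was larger after agonist, where non-neuronal libraries 2 and 3 were low.

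Cyp4f13 (ENSMUSG00000024055, chr17:32924688-32947402, minus strand), of the leukotriene and fatty acid hydroxylating Cyp4f subfamily, also overlapped. It had 36.8, 17.2, 17.6 and 38.1 CPM in neuronal agonist and 9.79, 37.1, 5.92 and 93.4 CPM in non-neuronal libraries after agonist. Control mice gave 20.5, 30.4, 35.8 and 19.8 CPM in neuronal and 28.9, 61.6, 16.1 and 33.3 CPM in non-neuronal libraries. Its log2 fold change was -0.86 after agonist (SE 0.86) and -0.62 in control mice (SE 0.47). Cyp4f16 (ENSMUSG00000048440, chr17:32536558-32551798, plus strand) had -1.66 (SE 1.05) and -0.61 (SE 0.57), and neither gene was called.

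Cyp2j6 (ENSMUSG00000052914, chr4:96516138-96553661, minus strand) had 57.3, 3.86, 0.628 and 10.0 CPM in neuronal agonist and 80.2, 3.65, 2.75 and 50.4 CPM in non-neuronal libraries after agonist. In control mice it had 8.05, 3.95, 8.80 and 5.52 CPM in neuronal and 7.62, 4.88, 8.84 and 26.1 CPM in non-neuronal libraries. Libraries numbered 1 were the highest in both agonist groups. Its log2 fold change was -1.54 after agonist (SE 1.29), or -0.07 without non-neuronal library 1, and -1.12 in control mice (SE 0.72). Cyp4v3 (ENSMUSG00000079057, chr8:45304944-45333216, minus strand), the mouse counterpart of the human eye-disease gene CYP4V2, had 1.80, 16.5, 44.3 and 6.93 CPM in neuronal agonist and 237, 1.40, 1.48 and 7.13 CPM in non-neuronal libraries after agonist. Control mice gave 15.4, 3.65, 4.26 and 7.47 CPM in neuronal and 14.6, 3.75, 1.59 and 23.5 CPM in non-neuronal libraries. Its log2 fold change was -2.99 after agonist (SE 1.60), which turned to 1.93 without non-neuronal library 1, and -0.71 in control mice (SE 0.85). Neither gene was called under either treatment.

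Cyp2u1 had 5.19, 37.3, 13.5 and 19.7 CPM in neuronal agonist and 4.49, 1.12, 0 and 0 CPM in non-neuronal libraries after agonist. In control mice it had 10.1, 24.6, 5.96 and 13.6 CPM in neuronal and 1.59, 16.9, 1.81 and 25.8 CPM in non-neuronal libraries. After agonist all neuronal libraries lay above the non-neuronal ones by CPM, with a log2 fold change of 2.66 (SE 1.49, edgeR adjusted p = 0.290), while in control mice the populations overlapped and the log2 fold change was 0.00 (SE 0.87). On the TMM scale of the fit the agonist groups overlapped too. Without non-neuronal agonist libraries 1 and 2, those above 30% mitochondrial counts, the other 2 were at 0 CPM and Cyp2u1 was called higher in neuronal nuclei (edgeR adjusted p = 0.0237; range over the other alternatives 0.0897 to 0.546).

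Several members below the count filter had counts in non-neuronal nuclei and next to none in neuronal ones. Cyp4f40 (ENSMUSG00000090700, chr17:32658900-32676914, plus strand) had no count in neuronal control and 383 in non-neuronal control libraries, where it was at 62.2, 26.3, 26.5 and 0 CPM. It was at least 117-fold lower in neuronal control nuclei, against a floor of 3 counts over the group. Cyp2f2, the naphthalene-oxidising enzyme of lung club cells, had 0 against 201 counts and was at least 61.2-fold lower. Cyp4b1 (ENSMUSG00000028713, chr4:115624725-115647723, minus strand), a lung-type P450, had 5, 2, 1 and 5 counts in neuronal control libraries and 87, 7, 53 and 168 counts in non-neuronal control libraries. These ratios compare summed reads of 4 libraries a group and carry no test of the groups. In the other direction Cyp4f17 had 75 counts in neuronal agonist and 8 in non-neuronal agonist libraries, but 67 of the 75 were in neuronal agonist library 3.

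The agonist changed no member past the threshold in neuronal nuclei. Of the 9 members tested 0 were called, as were 0.0% of the 14182 genes tested by edgeR, so the count says nothing particular of the members. At an unadjusted p under 0.05 there were 2 members, Cyp4x1 and Cyp4f16, and 711 genes (5.01%), and DESeq2 called 9 genes and no member. The median log2 fold change was 0.48 over the 9 members and 0.08 over all genes tested. Cyp4x1, with values given above, had 3 agonist libraries above all control libraries and 1 among them. Its log2 fold change was 1.16 (SE 0.46, edgeR adjusted p = 0.903), or 0.84 to 1.42 with any 1 library left out.

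Cyp4f16 had 1.58, 6.69, 4.71 and 9.35 CPM in neuronal agonist and 14.1, 13.1, 23.0 and 12.3 CPM in neuronal control libraries. It was the 1 member of the 9 whose groups did not overlap, lower after agonist, while 3.62% of all genes tested had groups that did not overlap in either direction. Its log2 fold change was -1.45 (SE 0.66, edgeR adjusted p = 0.903), which does not pass. Cyp2s1, Cyp4f13, Cyp2c55, Cyp4v3 and Cyp2j6 overlapped between treatments. Their log2 fold changes were -0.27 (SE 0.45), 0.19 (SE 0.49), -1.32 (SE 0.79), 1.23 (SE 0.85) and 1.81 (SE 1.06) in that order. The value of Cyp2j6 rested on neuronal agonist library 1 and was -0.46 without it, and that of Cyp4f13 turned to -0.16 without the same library.

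In non-neuronal nuclei the agonist likewise changed no member past the threshold. Of the 21 members tested 0 were called, while 2 of 14846 genes (0.0135%) were called, Cyp1a1 among them with a log2 fold change of 9.62 (SE 1.42, edgeR adjusted p = 0.0396). That call was lost in 6 of the 8 fits that left out a library, namely non-neuronal agonist 3 or 4 or any of the 4 non-neuronal controls, with an adjusted p of up to 0.493. At an unadjusted p under 0.05 there were 3 members, Cyp3a13, Cyp2b19 and Cyp2c40, and 715 genes (4.82%). DESeq2 called 35 genes, of which 1 was a member, Cyp3a13. The median log2 fold change was 0.16 over the 21 members and 0.13 over all genes tested.

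Cyp3a13 was at 428, 23.6, 93.7 and 23.5 CPM in non-neuronal agonist and 20.6, 10.5, 25.8 and 0.516 CPM in non-neuronal control libraries, which overlapped. Its log2 fold change was 3.96 (SE 1.35, edgeR adjusted p = 0.954; DESeq2 adjusted p = 0.0236, log2 fold change 4.01). Without non-neuronal agonist library 1 the edgeR value was 1.89 (adjusted p = 0.785). Cyp2c40 and Cyp2b19 were the 2 members of 21 whose groups did not overlap, both lower after agonist, against 3.43% of all genes tested. Cyp2c40 had 0, 2, 0 and 8 counts in non-neuronal agonist and 8, 48, 52 and 10 counts in non-neuronal control libraries. Cyp2b19 had 1, 0, 0 and 11 counts against 29, 8, 21 and 48, and the order held on the TMM scale. Both counts are low and neither gene passed (log2 fold changes -3.66, SE 1.55, and -3.18, SE 1.48, edgeR adjusted p = 0.954 for both).

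The other leading members of non-neuronal nuclei overlapped between treatments. Cyp2c55 had a log2 fold change of -0.73 (SE 0.69), which turned to 0.34 without non-neuronal control library 3. Cyp2c65 had 2.71 (SE 1.37), which turned to -2.11 without non-neuronal agonist libraries 1 and 2 together. Cyp4v3 had 3.43 (SE 1.72), which turned to -1.52 without non-neuronal agonist library 1. Cyp4b1 had -1.24 (SE 1.32) and was at 15.3, 0.843, 0 and 6.18 CPM in agonist libraries. Cyp4f40 had -1.52 (SE 1.24) and was at 10.8, 1.12, 11.4 and 4.52 CPM in agonist libraries. Cyp2d22 had 0.48 (SE 0.89), Cyp2s1 -0.27 (SE 0.96), Cyp4f13 0.34 (SE 0.78), Cyp4f16 -0.44 (SE 0.88) and Cyp2j6 2.10 (SE 1.05). None of the 10 was called, and with SEs of 0.69 to 1.72 on the log2 scale changes of a few fold are within the error. Library size in place of TMM scaling moved the median of all genes to -0.28.

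**Figure D5:**
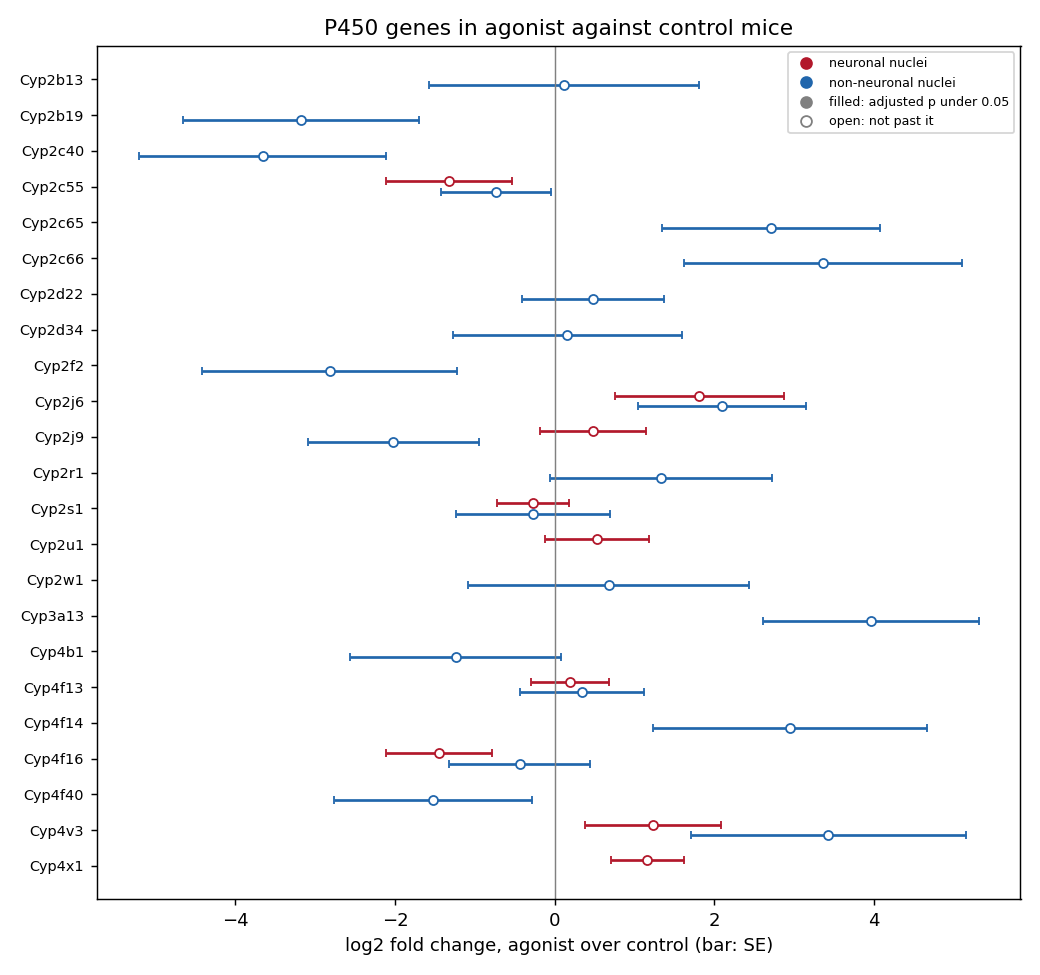
Log2 fold change of agonist over control with its SE, for members tested in neuronal nuclei (red) and non-neuronal nuclei (blue). All points are open because no member was called at an adjusted p under 0.05, with Cyp4x1 at 1.16 in neuronal and Cyp3a13 at 3.96 in non-neuronal nuclei.

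The agonist response of no member differed between the populations past the threshold. Of 23 members tested 0 were called, as were 0.0% of 18566 genes, with 3 members and 1484 genes (7.99%) at an unadjusted p under 0.05 and 103 genes called by DESeq2. The lowest adjusted p of a member was that of Cyp3a13, whose response was 6.69 lower on the log2 scale in neuronal than in non-neuronal nuclei (difference -6.69, SE 2.23, edgeR adjusted p = 0.477). Its neuronal side is 1 count after agonist and 10 in control libraries, 9 of them in neuronal control library 3. Cyp3a13 did not pass the count filter within neuronal nuclei, so its neuronal response lies at the floor. The difference was 2.07 for Cyp4x1 (SE 1.58), -0.51 for Cyp2c55 (SE 0.98), -1.86 for Cyp2c65 (SE 1.79) and 1.44 for Cyp2d22 (SE 1.34). Without non-neuronal agonist library 1, Cyp3a13 was at -4.72 and Cyp4x1 at 5.02, and neither passed.

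Because the agonist acts on AhR, promoters were searched for the core of the AhR response element, GCGTG on either strand. RefSeq promoters (GRCm38.p6, 250 bases before to 50 after each start) were found for 63 of the 78 members, 70 promoters in all. GCGTG occurred in 13 of the 70 (18.6%), against 10639 of 32851 promoters of all genes (32.4%). The longer TNGCGTG, which contains the core, occurred in 1 (1.43%), that of Cyp2c68, against 1664 (5.07%). Member promoters had a median of 2.0 CpG dinucleotides and all promoters 7.0. The motif itself contains a CpG, and the part of CpG content in these shares was not tested. The promoters of Cyp1a1, as the standard AhR target, of Cyp2s1, described as an AhR target, and of Cyp4f16, the member apart between treatments in neuronal nuclei, are shown 5′ to 3′ along the gene's strand, with GCGTG or its reverse complement CACGC in capitals. They lie at chr9:57697363-57697662 (plus strand), chr7:25816476-25816775 (minus strand) and chr17:32536307-32536606 (plus strand). No match in these windows says only that the letters are not there.
Cyp1a1: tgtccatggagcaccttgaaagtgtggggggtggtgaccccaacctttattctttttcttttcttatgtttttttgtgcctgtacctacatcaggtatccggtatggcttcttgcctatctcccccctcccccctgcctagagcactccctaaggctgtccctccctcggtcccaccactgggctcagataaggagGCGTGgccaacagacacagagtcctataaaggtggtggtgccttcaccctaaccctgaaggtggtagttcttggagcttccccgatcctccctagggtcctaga
Cyp2s1: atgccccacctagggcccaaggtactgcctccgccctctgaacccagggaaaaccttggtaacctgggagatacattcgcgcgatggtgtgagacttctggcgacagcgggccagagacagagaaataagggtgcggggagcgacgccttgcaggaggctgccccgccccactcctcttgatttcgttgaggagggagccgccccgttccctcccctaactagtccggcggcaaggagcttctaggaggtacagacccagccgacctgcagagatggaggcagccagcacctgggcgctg
Cyp4f16: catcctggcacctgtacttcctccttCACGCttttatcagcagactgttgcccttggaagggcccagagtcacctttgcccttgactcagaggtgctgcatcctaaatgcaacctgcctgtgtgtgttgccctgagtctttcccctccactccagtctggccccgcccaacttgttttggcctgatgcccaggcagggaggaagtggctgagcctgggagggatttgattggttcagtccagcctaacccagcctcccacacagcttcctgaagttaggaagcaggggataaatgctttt
The windows of Cyp1a1 and Cyp4f16 hold 1 match each and that of Cyp2s1 holds none.

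Genes that work with these enzymes were read from lists chosen with earlier results known. Of 8 redox partners, which pass electrons to P450 enzymes, 0 were called between populations in control mice, and Por was between 3.34 and 35.9 CPM over the 16 libraries. After agonist 1 of 7 tested was lower in neuronal nuclei, the cytochrome b5 reductase Cyb5r3 at 11.3, 1.54, 1.57 and 7.27 CPM in neuronal and 132, 14.0, 11.2 and 69.2 CPM in non-neuronal libraries (log2 fold change -4.11, SE 1.08, edgeR adjusted p = 0.0194). Of 12 genes of haem synthesis and breakdown 0 of 9 tested were called under either treatment. Of 4 epoxide hydrolases, which open the epoxides that Cyp2c and Cyp2j enzymes make, 0 of 2 tested were called. Over all genes tested, 25.4% were called between populations in control mice and 13.6% after agonist. Beside those shares, counts from lists this short say little of the lists.

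Of 15 nuclear receptors and liver-type factors that regulate P450 genes, 12 were tested in control mice, and 8 were called lower in neuronal nuclei and 0 higher, while 13.5% of all genes tested were called lower. Their median log2 fold change was -2.89. Nr1i2 (PXR) was at 0, 0.304, 0.284 and 0 CPM in neuronal control and 9.84, 7.88, 11.8 and 13.2 CPM in non-neuronal control libraries, which did not overlap (log2 fold change -6.07, SE 1.05, edgeR adjusted p = 0.000911). The others were Vdr at -6.75, Nr5a2 at -6.11, Hnf4a at -5.18, Hnf4g at -3.15, Pparg at -2.78, Ppard at -2.17 and the glucocorticoid receptor Nr3c1 at -1.66. After agonist 4 of 10 tested were called lower, Hnf4a at -5.81, Vdr at -5.28, Pparg at -3.77 and Nr3c1 at -1.91, and 0 higher. Of all genes tested after agonist, 6.97% were called lower. Markers of colonocytes moved the same way, with 7 of 7 tested in control mice and 6 of 6 after agonist lower in neuronal nuclei. Their sums were 0.226 to 34.2 CPM in neuronal agonist and 12.4 to 27.8 CPM in neuronal control libraries. In non-neuronal libraries they were 379 to 1118 CPM after agonist and 167 to 857 CPM in control mice. Most other non-neuronal cell types shared this direction in control mice. Goblet cell markers had 4 of 4 tested called lower there, and smooth muscle, fibroblast, endothelial and macrophage markers 3 of 3 each. Lymphatic, interstitial cell of Cajal and lymphocyte markers had 2 of 2 each, and enteric glia 1 of 2. The part of any cell type in the receptor and P450 values was not tested.

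Of 9 genes that release arachidonic acid, a substrate of Cyp2c, Cyp2j and Cyp4 enzymes, or oxidise it by other routes, 4 were tested in control mice and 3 called, all lower in neuronal nuclei, while 13.5% of all genes tested were called lower: the phospholipase Pla2g4a at -5.39 (SE 0.98), the prostaglandin synthases Ptgs2 at -5.25 (SE 1.02) and Ptgs1 at -2.28 (SE 0.49), with edgeR adjusted p of 0.00122, 0.0019 and 0.00365. The leukotriene hydrolase Lta4h was not called (-0.53, SE 0.39, edgeR adjusted p = 0.361). After agonist 1 of 4 was called, Pla2g4a at -6.39 (SE 1.32, edgeR adjusted p = 0.00491), while 13.6% of all genes tested were called. In the agonist comparisons within a population 0 genes of the redox, haem, epoxide hydrolase, receptor and arachidonic acid lists were called. Over all genes tested these comparisons called 0.0% in neuronal and 0.0135% in non-neuronal nuclei.

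Sequence shared between members limits some values. Of the 78 members, 22 share no 75-base stretch with a transcript of another gene, 13 share over 20%, and the median is 2.62%. Cyp2c55, Cyp3a13, Cyp2s1, Cyp2j6 and Cyp4f40 share none. Cyp3a41a and Cyp3a41b share 95.3% and 90.9% and are uncertain as single genes. Exons of Cyp4v3 overlap those of Gm45753 on the same strand, which had 65 counts, and Cyp2s1 overlaps Gm26707 on the opposite strand, which had 90.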

How the data were processed

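Nuclear RNA of 16 libraries in 4 groups of 4 was analysed from 1 table of the whole series. Its values are expected counts per gene, deposited by the authors; RSEM 1.3.0, STAR 2.5.2, DESeq2 1.10.1 and GRCm38 are named in the submitters' processing notes, which give no role, strand setting or annotation release. Libraries were made from cDNA sheared to 200 bp with 7 PCR cycles and read as 75-base single ends, per the labels' protocols. Expected counts were rounded to whole numbers. Genes were kept by edgeR's filterByExpr (minimum count 10, minimum total 15) and tested in R 4.3.3 with edgeR 4.0.16 quasi-likelihood fits (TMM scaling, robust), each on the libraries of its comparison, with all 16 for the difference of responses. P-values were adjusted by Benjamini-Hochberg over all genes tested, with a threshold of 0.05. SEs are the log2 fold change over the root of F. DESeq2 1.42.0, other scalings, no filter, 1 fit over all groups, left-out libraries and a replicate block were alternatives. The fits were tested on simulated data. Any member that passed the count filter in a comparison could be named; values per library with fold changes were for members called in any comparison and the 5 highest per kilobase in each group, and list genes for being called or highest in mean CPM. Members shown beyond this, such as Cyp2u1, Cyp3a11, Cyp2b19 and Cyp2c40, were chosen after their values were seen. Members and lists were chosen with earlier results of these data known. PCR reads carry no molecular identifiers, so intervals and floors cover counting error only. Gene names, exon lengths, shared 75-base stretches and coordinates come from GENCODE on GRCm38.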

Additional observations from a re-analysis of the deposited data

Results flagged for a closer look

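Single libraries stood far from the other 3 of their group in 11 of 55 groups of member values. The gap was tested by Dixon's ratio at the 95% level. By chance it flags about 1 in 20 groups if values are normal and groups independent. These groups share libraries and the sum was tested beside its own members, so 11 of 55 was not judged against that rate. Non-neuronal agonist library 1 was the library in 5 of the flagged groups. Its summed member level was 2102 CPM, with 330 to 546 CPM in the other 3. Cyp4v3 was at 237 CPM there and at 1.40 to 7.13 CPM in the others, Cyp3a25 at 163 CPM with 0 to 0.562 CPM, Cyp2d26 at 117 CPM with 0 to 0.281 CPM, and Cyp4x1 at 2.04 CPM with 0 to 0.238 CPM.

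Neuronal control library 3 was the library in 3. Cyp2c55 was at 28.7 CPM there and at 5.17 to 7.79 CPM in the others, Cyp4f16 at 23.0 CPM with 12.3 to 14.1 CPM, and Cyp3a13 at 2.56 CPM with 0 to 0.304 CPM. Cyp2c55 was also at 523 CPM in non-neuronal control library 3, with 104 to 153 CPM in the others of that group. Cyp4f16 was at 28.1 CPM in non-neuronal agonist library 4, with 4.78 to 8.67 CPM in the others. Cyp2j6 was at 57.3 CPM in neuronal agonist library 1, with 0.628 to 10.0 CPM in the others.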

How the results depend on the processing

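The cause of the changes listed here was not tested. Members called were 11 after agonist and 8 in control mice between populations with all 4 groups in 1 fit, 12 and 14 with no filter on low counts, and 4 to 8 in control mice with 1 library left out. Those last fits called 3399 to 4735 of all genes. The counts of members are not set against the number tested in each fit, so they cannot be read as particular to the members. DESeq2 called 1 member in non-neuronal nuclei, and the difference of responses had 1 with no filter. Of all genes, DESeq2 called 9 in neuronal nuclei, 35 in non-neuronal nuclei, 103 for the difference and 2937 between populations after agonist. With no filter these were 152, 88, 110 and 3324. With all groups in 1 fit 11 genes were called in non-neuronal nuclei and 4590 between populations after agonist. Library size alone gave 0 in non-neuronal nuclei. Without the libraries over 30% mitochondrial counts there was 1 in non-neuronal nuclei and 7 for the difference, and with 1 library left out 0 to 2 and 0 to 9.

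Members detected with at least 5 counts in 3 of 4 libraries were 12 in neuronal control, 14 in non-neuronal agonist and 24 in non-neuronal control nuclei. With 1 count in 2 of 4 libraries they were 33 in neuronal control and 46 in non-neuronal agonist nuclei. With 1 library left out and a count asked of 2 of the 3 that remain, non-neuronal agonist nuclei had 30 to 44. The summed level of neuronal control nuclei was 153 CPM with TMM over 16 libraries.

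Log2 values that turned sign were not called. Cyp2s1 between populations after agonist was 0.03 in the 4-group fit, 0.72 by library size, 0.11 with no filter, 1.16 with the replicate block, 1.54 without the libraries over 30% mitochondrial counts and -0.47 to 1.61 with 1 library left out, and in control mice -0.01 in the 4-group fit and -0.02 to 0.27. Cyp4v3 was 0.72 with the block, 1.82 without those libraries and -3.92 to 1.93 after agonist, and -1.21 to 0.05 in control mice. In non-neuronal nuclei, agonist against control, Cyp2c65 was -2.11, Cyp2d22 -0.34 and Cyp4v3 -1.29 without those libraries, Cyp2d22 -0.05 by library size and Cyp4f13 -0.14 with the block. With 1 library left out, Cyp4v3 was -1.52 to 4.16, Cyp2c55 -1.37 to 0.34, Cyp2s1 -1.90 to 0.10 and Cyp4f13 -0.29 to 0.77. In neuronal nuclei Cyp2j6 was -0.46 to 2.21 and Cyp4f13 -0.16 to 0.40. The difference was 2.83 for Cyp2c65 without those libraries and -1.70 to 0.30 for Cyp2c55.

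Correlations of same-numbered libraries were -0.104 to 0.178 and not every library correlated best with its own number, so the numbers do not pair the samples. The replicate block called 3 members between populations after agonist, with Cyp2c65 at -4.80 (edgeR adjusted p = 0.267), 4 in control mice and 0 otherwise.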

Other observations

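Among other P450 families, Cyp51, the lanosterol demethylase of cholesterol synthesis, was at 160, 54.5, 127 and 72.4 CPM in neuronal agonist and 5.51, 41.6, 12.7 and 40.2 CPM in non-neuronal libraries after agonist, and at 118, 123, 74.7 and 118 CPM in neuronal control and 56.2, 96.1, 114 and 48.0 CPM in non-neuronal control libraries. It was called in no comparison. Cyp27a1, a sterol hydroxylase of bile acid synthesis, was at 4.02, 1.22, 2.27 and 2.60 CPM in neuronal control and 34.0, 14.6, 17.5 and 36.9 CPM in non-neuronal control libraries, which did not overlap (log2 fold change -3.59, SE 0.64, edgeR adjusted p = 0.0011). It was the 1 gene called of 4 tested from 19 genes of other families in control mice, where 25.4% of all genes tested were called, and 0 of 4 were called after agonist, where 13.6% were. Cyp46a1, the cholesterol hydroxylase known from brain neurons, was at 3.16, 7.20, 3.14 and 0 CPM in neuronal agonist and 0, 0, 0 and 3.09 CPM in non-neuronal libraries after agonist, and was not called. The AhR repressor gene Ahrr was at 48.7, 65.3, 67.5 and 79.0 CPM in neuronal agonist and 9.72, 9.12, 2.84 and 18.5 CPM in neuronal control libraries. These groups did not overlap, with a log2 fold change of 2.81 that did not pass (SE 0.51, edgeR adjusted p = 0.574). No such rise was seen in non-neuronal libraries, at 5.3, 2.81, 10.8 and 0.713 CPM after agonist. The non-neuronal control libraries had 21.0, 2.63, 13.1 and 13.2 CPM (log2 fold change -0.84, SE 1.15, edgeR adjusted p = 0.983). Between populations after agonist Ahrr was called higher in neuronal nuclei (log2 fold change 3.0, SE 0.9, edgeR adjusted p = 0.0371).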
